A study of Mus musculus with 11 samples.

Results

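FMRP-bound RNA fragments of mouse cerebellum were compared with those of hippocampus, gene by gene, at postnatal day 13. Samples were chosen by their tissue label, which gave 7 of the 11 libraries of the study: 2 of cerebellum and 5 of hippocampus, read over all 30986 gene rows. In each, FMRP was immunoprecipitated from frozen, ground tissue crosslinked by ultraviolet light of 254 nm in 3 doses of 400 mJ each, and the recovered RNA was made into libraries by a small-RNA ligation kit. All groups share this treatment and age, and the labels name no genotype, strain, sex or drug. No input RNA and no tissue without FMRP was analysed here, so the amount of an RNA and its binding cannot be told apart. Nor can fewer cells of a type be told apart from less bound RNA per cell, since whole tissue was used. Whether the libraries of 1 region stem from different mice is not in the labels. The p-values therefore rest on library-to-library spread alone, part of which may be technical. The 3 libraries of cortex entered the fit, where they bear on that spread and, through the title codes, on the estimates themselves; their levels are given only beside the genes shared by granule neurons.

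FMRP, the product of Fmr1, binds many long neuronal mRNAs on polyribosomes and restrains their translation; its loss causes Fragile X syndrome. Ultraviolet light joins the protein to RNA in contact with it, so fragments recovered with FMRP report which RNAs it touched. The cerebellum is filled with granule neurons, small glutamatergic cells born late, which send parallel fibres to Purkinje cells. The dentate gyrus of the hippocampus also holds granule neurons that are born late, while the CA fields hold pyramidal neurons of telencephalic origin. Both kinds of granule neuron pass through a NEUROD1 stage and share a set of transcription factors, among them ZBTB20 and the NFI proteins.

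Total counts were 95454 and 197382 in cerebellum 1 and 2. Hippocampus 1 and hippocampus 2 did not differ detectably beyond sampling noise, with a chi-square of 1.03 per degree of freedom (p = 0.195), whereas 13 other pairs of the same region gave 1.51 to 22.01. Their counts were summed to 130306 and treated as 1 sample, hippocampus 1+2, so that n is 4 in hippocampus; hippocampus 3, 4 and 5 had 117322, 21944 and 21531 counts. Levels are counts per 1000000 counts of a sample (CPM). Where a gene had 0 counts, its level may be as high as 3 counts, or 15.2 CPM in cerebellum 2 and 139.3 CPM in hippocampus 5, and such limits cover counting error only. Libraries of hippocampus stood apart from each other: the 100 highest rows took 6.66 and 8.49% of counts in hippocampus 3 and 4 against 13.95 and 18.9% in hippocampus 1+2 and 5, and 14.2 and 13.3% in cerebellum. Rows with predicted gene names took 16.1 and 15.5% in hippocampus 3 and 4, against 5.90 to 10.2% in the other 4 samples. The part of these differences in the results was not tested.

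Cerebellum and hippocampus differed in 110 of 1720 tested genes, which is 6.4% (edgeR quasi-likelihood test, Benjamini-Hochberg adjusted p under 0.05, here termed called). Of these 53, or 3.08% of tested genes, were higher in cerebellum and 57, or 3.31%, were lower. Changes of called genes ran from 1.48 to 5.08 on the log2 scale when higher (median 2.07) and from -1.48 to -4.60 when lower (median -2.28). The median of all tested genes was -0.023. The filter on low counts can pass a gene through 2 samples alone, so a gene may have entered through the group in which it is high, and counts over gene lists given below are descriptions. In CPM, both cerebellum values stood above all 4 hippocampus values for 53 of the 53 higher genes, against 15.9% of all tested genes. They stood below all 4 for 36 of the 57 lower genes, against 8.26% of all tested genes. Library totals without TMM scaling gave 31 higher and 14 lower genes, with the median of all genes moved by 0.253. The count was 83 without the title code as a block (46 higher and 37 lower), 70 with DESeq2 and 0 without the filter on low counts, where edgeR had 465 genes at an unadjusted p under 0.05. It was 10 without cerebellum 1, 5 without cerebellum 2, 42 without hippocampus 1+2, 70 without hippocampus 3, 70 without hippocampus 5, 58 without cortex 1 and 191 without cortex 3.

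**Figure D1:**
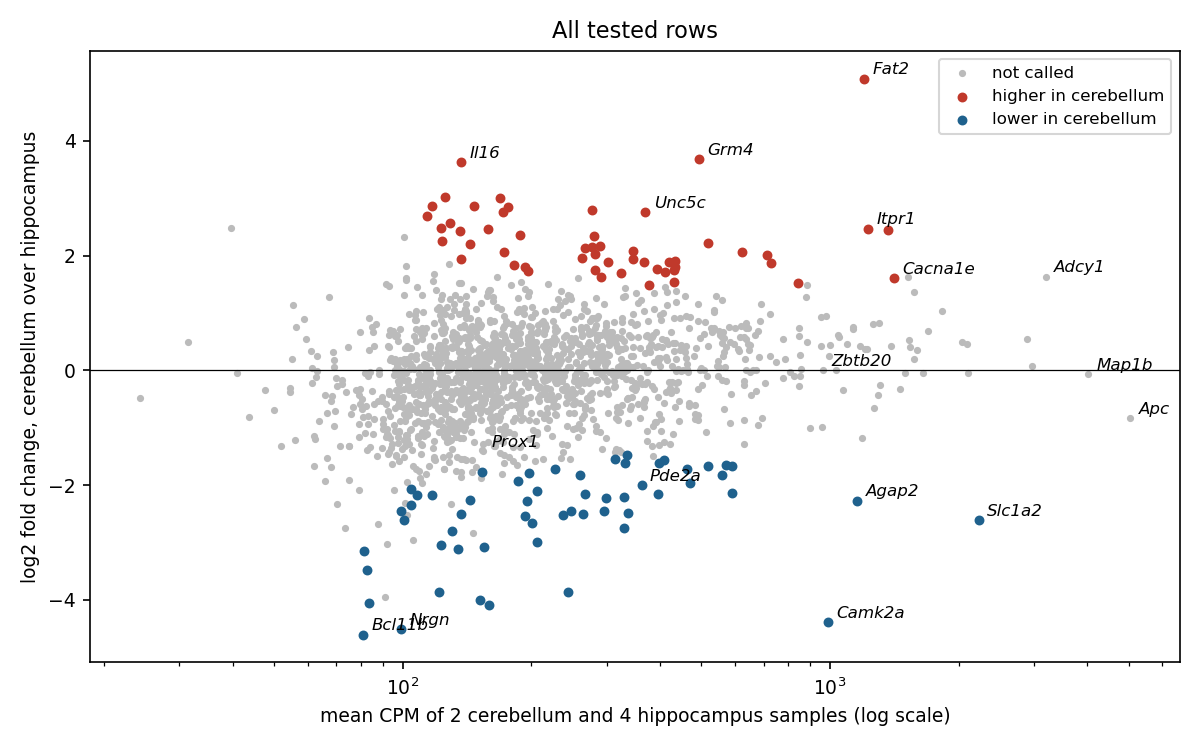
Mean CPM of the 6 samples (x axis, log scale) against the log2 fold change of cerebellum over hippocampus (y axis) for the 1720 tested genes. Red points are the 53 genes called higher in cerebellum, blue points the 57 called lower and grey points the rest. Adcy1, Apc and Map1b are among the most abundant and were not called.

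The gene with the largest change was Fat2, an atypical cadherin that granule cells of the cerebellum carry on their parallel fibres, on chromosome 11 from 55250609 to 55336564 (minus strand, GRCm38). It had 4086 and 2786 CPM in cerebellum against 61.4, 136.4, 136.7 and 0 CPM in hippocampus 1+2, 3, 4 and 5. No hippocampus sample came near either cerebellum sample, and cerebellum was higher by 5.08 on the log2 scale (SE 0.605, adjusted p = 8.77e-14). DESeq2 gave Fat2 an adjusted p of 0.11; the cause was not tested. Grm4, a presynaptic glutamate receptor of parallel fibres (chromosome 17, 27422387 to 27521403, minus strand), had 1351 and 1155 CPM in cerebellum and 69.1, 68.2, 136.7 and 185.8 CPM in hippocampus. The groups were far apart, and the difference on the log2 scale was 3.68 (SE 0.547, adjusted p = 1.01e-08). Chn2, a Rac GTPase-activating protein of granule cells, had 324.8 and 273.6 CPM against 46.1, 17.1, 91.1 and 0 CPM (3.02, SE 0.733). Unc5c, a netrin receptor that guides granule cell migration, had 1058 and 825.8 CPM against 115.1, 127.9, 91.1 and 0 CPM (2.76, SE 0.514). Its relative Unc5b was called as well (2.49), and so was Draxin, a secreted ligand of the same guidance system (2.20). DESeq2 called neither, with adjusted p-values of 0.0989 for Unc5b and 0.202 for Draxin.

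Among the 12 genes with the largest increase were also Xkr7 (log2 fold change 3.00), Glce (2.87), Sel1l3 (2.86), Mmp24 (2.84), Galnt15 (2.76) and Lrrtm3 (2.69). Glce, Galnt15 and Lrrtm3 were not called by DESeq2 (adjusted p = 0.0644, 0.0667 and 0.0989). Glce encodes an epimerase of heparan sulfate, Mmp24 a membrane-bound metalloproteinase, Galnt15 a glycosyltransferase and Lrrtm3 a postsynaptic adhesion protein. Over these 6 genes the highest value in hippocampus was 91.1 CPM and the lowest in cerebellum 187.5 CPM. The measured values thus did not overlap in any of them. In hippocampus 4 and 5, however, each of these genes had at most 2 counts, so there this separation rests on very few counts.

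**Figure D2:**
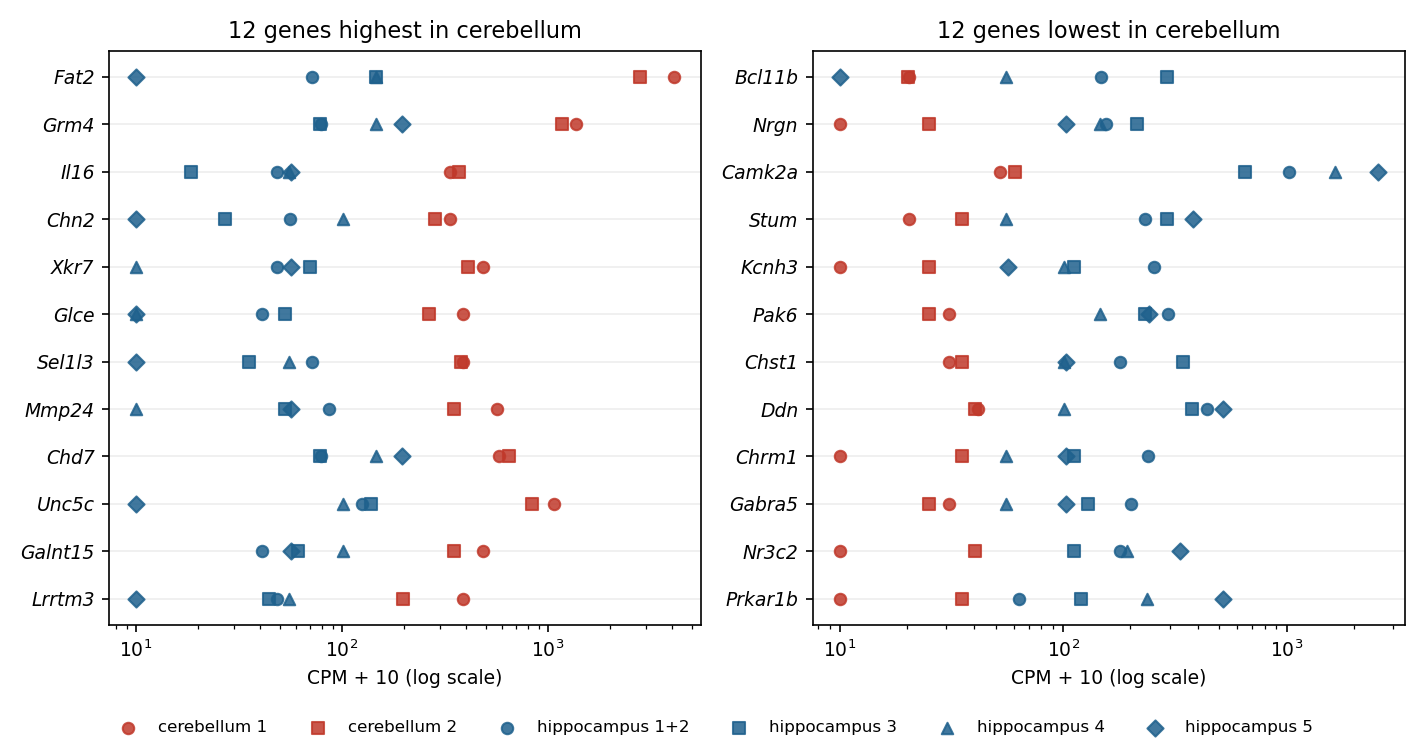
Level of the 12 genes with the largest increase (left) and the 12 with the largest decrease (right) in cerebellum, as CPM + 10 on a log axis, 1 symbol per sample. Red symbols are cerebellum and blue symbols hippocampus. On the left red lies above blue in every row; on the right red lies below blue except for Bcl11b, where hippocampus 5 is at 0.

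Markers of cerebellar granule neurons were higher in cerebellum: of 21 in the table, 8 could be tested and 7 were called, all higher. That is 87.5%, against 6.4% of all tested genes. The median log2 fold change was 2.69 against -0.023 for all tested genes. Besides Fat2, Grm4 and Chn2 the called markers were Il16, Zic1, Cadps2 and Unc13c. The markers were chosen with earlier results known, and could pass the filter through the cerebellum samples alone. Their direction is thus a description and no independent evidence. Zic1, a zinc finger factor of granule cell precursors, had 335.2 and 542.1 CPM against 30.7, 127.9, 0 and 92.9 CPM (2.36, SE 0.565). Unc13c, a vesicle priming protein, had 1456 and 1262 CPM against 736.7, 93.8, 319.0 and 510.9 CPM (1.87, SE 0.520, adjusted p = 0.0519 without the block). Its hippocampus samples were spread widely, though all stayed under cerebellum. Grin2c, the NMDA receptor subunit of mature granule cells, was not called, with 293.3 and 146.9 CPM against 168.8, 153.4, 91.1 and 0 CPM, an overlap. Summed over the 21 markers, cerebellum had 10120 and 8435 CPM and hippocampus 1168 to 1533 CPM. Atoh1, which marks dividing precursors, had 0 counts in both cerebellum samples.

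Several granule cell genes were too low for the filter of that fit. A fit of the 6 samples of cerebellum and hippocampus only had a looser filter and called 128 of 2781 genes, 4.6%. The 3 genes below passed it through the cerebellum samples, in which they are high, so their values are a description and no test of them is given. Gabra6, the GABA receptor subunit that granule cells gain on maturing, had 429.5 and 152 CPM in cerebellum and 0, 8.52, 45.6 and 0 CPM in hippocampus. With 71 counts against 2, its level was 35.3-fold higher (95% exact counting interval 9.42 to 297). Cbln3, a secreted partner of Cbln1, had 54 counts against 3 and was 17.9-fold higher (5.81 to 89.5). Cbln1, which links parallel fibres to Purkinje cell spines, had 178.1 and 319.2 CPM against 0, 59.7, 136.7 and 0 CPM (log2 fold change 2.94, SE 0.659).

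Genes shared by granule neurons of cerebellum and dentate gyrus were examined as a list of 23, of which 13 could be tested. Of these, 4 were called, all higher in cerebellum, and 0 were lower, which is 30.8% called against 6.4% of all tested genes. The log2 fold change was above 0 for 13 of 13, with a median of 0.67 against -0.023 for all tested genes. However, Zbtb20 and Zbtb18 turned negative without the block and Nfix (-0.07) and Tiam1 (-0.05) without hippocampus 1+2. Members too low to test stand outside these counts. Of them, Bhlhe22 had a mean of 45.9 CPM in cerebellum against 82.1 CPM in hippocampus, and Dcx 164.5 against 79.2 CPM. A member could also pass the filter through the cerebellum samples alone. Il16 and Cadps2 also stand in the list of cerebellar markers, and without the members of that list 11 were tested, 2 were called and the median was 0.59. The list was chosen with earlier results known, so its direction is no independent evidence. Summed over the 23, cerebellum had 15180 and 12494 CPM, above hippocampus with 6178, 4654, 3600 and 8917 CPM and cortex with 7519, 6955 and 3614 CPM; Adcy1 alone gave 7700 and 5178 CPM of the cerebellum sums.

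Il16, the precursor of a cytokine with a neuronal form made by granule cells, had 324.8 and 359.7 CPM in cerebellum. It had 38.4, 8.52, 45.6 and 46.4 CPM in hippocampus and 0, 17.9 and 0 CPM in cortex. Hippocampus 1+2, 3, 4 and 5 had 5, 1, 1 and 1 counts of Il16, so its levels there are imprecise. The log2 fold change was 3.62 (SE 0.758, adjusted p = 0.000205). Chd7, a chromatin remodeller needed for the growth of granule cell precursors, had 565.7 and 638.4 CPM against 69.1, 68.2, 136.7 and 185.8 CPM. It changed by 2.79 (SE 0.571, adjusted p = 0.000134). Cadps2, which primes dense-core vesicles, had 586.7 and 450.9 CPM against 145.8, 68.2, 91.1 and 325.1 CPM (2.14, SE 0.536). Sema6a, a guidance ligand of migrating granule cells, had 513.3 and 476.2 CPM against 122.8, 119.3, 227.9 and 232.2 CPM (1.75, SE 0.528, adjusted p = 0.0188, but 0.0591 without the block and 0.101 in DESeq2). For these 4 genes no hippocampus sample reached either cerebellum sample.

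The other 9 tested members were not called. Adcy1, the calcium-stimulated adenylyl cyclase of both granule cell types, had 7700 and 5178 CPM against 2179, 1261, 729.1 and 2136 CPM, without overlap. Its log2 fold change was 1.63 (95% interval 0.39 to 2.88, adjusted p = 0.102), and it was called without the block (adjusted p = 0.0285) and by DESeq2 (adjusted p = 0.00157). Plxna2, the receptor of Sema6a, had 1.01 (interval 0.09 to 1.92), again without overlap. Nfib, Kcnd2, Nfia and Nfix had 0.67, 0.59, 0.51 and 0.32, and Zbtb18 and Tiam1 had 0.23 each, all with intervals that span 0. Zbtb18 was -0.19 without the block, and its levels in hippocampus ran from 138.1 to 1022 CPM, around the 366.7 and 380 CPM of cerebellum. The sign of Zbtb18 therefore changed with the fit.

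Zbtb20, a repressor that specifies hippocampal neurons and is also made by granule cells of the cerebellum, lies on chromosome 16 from 42875881 to 43642602 (plus strand). It had 974.3 and 876.5 CPM in cerebellum and 1128, 494.4, 455.7 and 1858 CPM in hippocampus, while cortex had 325.5, 340.6 and 168.1 CPM. Cerebellum fell inside the range of hippocampus and both lay above all cortex samples. The difference from hippocampus was 0.01 on the log2 scale (95% interval -0.94 to 0.95); these samples thus do not tell equal levels from a difference inside that interval. Its sign changed with the fit, from 0.01 to -0.07 without the block.

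**Figure D3:**
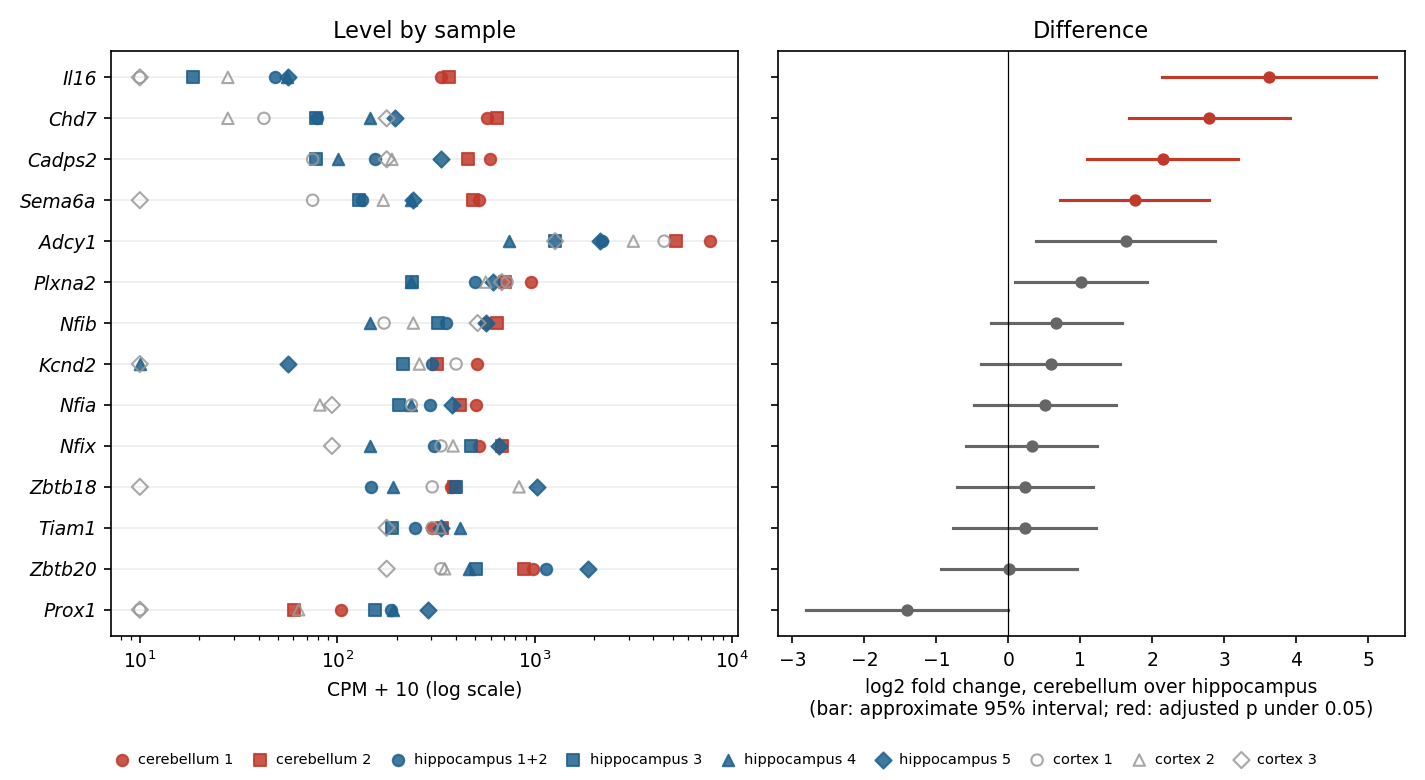
Tested genes shared by granule neurons, and Prox1: CPM + 10 by sample on a log axis (left; red cerebellum, blue hippocampus, open grey cortex) and log2 fold change of cerebellum over hippocampus with its approximate 95% interval (right; red where called). Il16, Chd7, Cadps2 and Sema6a are called, and Zbtb20 sits at 0.01.

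Prox1, the homeobox factor that sets and keeps the identity of dentate granule cells, had 94.3 and 50.7 CPM in cerebellum. Hippocampus had 176.5, 144.9, 182.3 and 278.7 CPM, all above cerebellum. The log2 fold change was -1.40 (95% interval -2.80 to -0.002), and it was not called (adjusted p = 0.293). Within title codes, which tie cerebellum 1 to hippocampus 1+2 and cerebellum 2 to hippocampus 3, the log2 ratios of CPM were -0.91 (95% exact counting interval -2.20 to 0.26) and -1.52 (-2.81 to -0.31). The counts of Prox1 were 9 and 10 in cerebellum 1 and 2 and 23 and 17 in hippocampus 1+2 and 3, which limits the precision. Of the 13 dentate granule markers in the table only 4 were tested and 0 were called, with a median of -0.31; the others were Dgkh (-0.08), Dsp (0.02) and Rfx3 (-0.54). C1ql2 and Tdo2, which define mature dentate granule cells, had at most 91.1 CPM in any of the 6 samples. Summed, dentate markers had 660 and 678.9 CPM in cerebellum and 664.8 to 1951 CPM in hippocampus.

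The letters upstream of genes with contrasting patterns are shown for Il16, called higher, Prox1, at its highest in hippocampus, and Pde2a, called lower. Each is the 250 bases before the RefSeq start on GRCm38.p6, read 5′ to 3′ on the gene's strand. Capitals mark CAGATG or its reverse complement CATCTG, an E-box letter pattern that NEUROD1 and ATOH1 can bind. The windows are chr7:83735540-83735789 (minus strand) for Il16, chr1:190170828-190171077 (minus strand) for Prox1 and chr7:101421441-101421690 (plus strand) for Pde2a. The start used for Il16 lies inside the GENCODE gene, which runs from 83642825 to 83745726. The windows contain 0 annotated exons and were chosen after the values were seen. Windows without the pattern were left out of the choice, so a match in each shown window was fixed beforehand and is no result.
Il16: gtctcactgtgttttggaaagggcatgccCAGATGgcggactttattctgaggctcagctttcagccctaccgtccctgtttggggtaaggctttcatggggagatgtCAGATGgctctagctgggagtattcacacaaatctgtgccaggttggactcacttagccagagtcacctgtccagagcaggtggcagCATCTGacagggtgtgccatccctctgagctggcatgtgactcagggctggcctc
Prox1: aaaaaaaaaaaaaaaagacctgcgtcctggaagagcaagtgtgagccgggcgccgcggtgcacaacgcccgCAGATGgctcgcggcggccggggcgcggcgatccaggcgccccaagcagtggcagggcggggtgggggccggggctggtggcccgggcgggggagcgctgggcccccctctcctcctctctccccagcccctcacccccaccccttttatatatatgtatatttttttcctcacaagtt
Pde2a: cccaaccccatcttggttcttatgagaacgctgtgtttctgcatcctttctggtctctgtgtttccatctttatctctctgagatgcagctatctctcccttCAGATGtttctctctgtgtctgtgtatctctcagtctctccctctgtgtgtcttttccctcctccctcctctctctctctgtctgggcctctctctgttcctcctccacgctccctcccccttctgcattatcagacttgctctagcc
The Il16 window held 3 matches, whose first bases lie 221, 142 and 55 bases before the start, and the windows of Prox1 and Pde2a held 1 each. The pattern was in 9.05% of the 1293 promoter windows of tested genes and in 14.5% of all 27025 windows of this length. It was in 2 of 38 windows of higher genes (5.26%) and 7 of 42 of lower genes (16.7%), but a comparison of these groups is void, because only 71.7% of the higher and 73.7% of the lower genes had a window.

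In the other direction, markers of telencephalic excitatory neurons were lower in cerebellum. Of 24, 14 could be tested, and 9 were called lower and 0 higher. That is 64.3%, against 6.4% of all tested genes, and the median was -3.86. This list too was chosen with earlier results known, and members could pass the filter through samples in which they are high. Its direction is thus a description and no independent evidence. Camk2a, the alpha subunit of the synaptic calmodulin kinase, had 41.9 and 50.7 CPM in cerebellum against 1021, 639.3, 1641 and 2554 CPM in hippocampus. Even hippocampus 3, the lowest, stood far above cerebellum, and the log2 fold change was -4.39 (SE 0.643, adjusted p = 8.09e-09). Ddn, the postsynaptic protein dendrin, had 31.4 and 30.4 CPM against 429.8, 366.5, 91.1 and 510.9 CPM (-3.86, SE 0.648, adjusted p = 1.23e-06). Pak6, a p21-activated kinase, had 21.0 and 15.2 CPM against 283.9, 221.6, 136.7 and 232.2 CPM (-4.01, SE 0.722). Stum (-4.09) and the sulfotransferase gene Chst1 (-3.86) were lower too. In all 5 the groups did not overlap. In hippocampus 4, however, Stum had 1 count and Ddn and Chst1 had 2 each, so for them this separation rests on very few counts.

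Other genes of this list had very few counts in cerebellum. Nrgn, which binds calmodulin in spines, had 0 and 15.2 CPM in cerebellum and 145.8, 204.6, 136.7 and 92.9 CPM in hippocampus. With 3 counts against 48, it was 16.1-fold lower (95% exact counting interval 5.19 to 80.8; adjusted p = 3.61e-05). Kcnh3, a potassium channel of forebrain neurons, had 3 counts against 47 and was 15.8-fold lower (5.07 to 79.2). Bcl11b, a transcription factor of projection neurons and of hippocampal granule and pyramidal cells, had 3 counts against 52 and was 17.4-fold lower (5.65 to 87.3). Hippocampus 5 had 0 counts of Bcl11b, where 3 counts would be 139.3 CPM, so the groups overlapped. Chrm1, a muscarinic receptor gene, had 0 and 25.3 CPM against 230.2, 102.3, 45.6 and 92.9 CPM (-3.48, SE 0.930).

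Not all forebrain markers were called. Among those that missed the threshold were Arpp21 (-0.14), Mef2c (-0.59), Slc17a7, the vesicular glutamate transporter that granule cells also make (-0.87) and Foxp1 (-1.30). Summed over 24 markers, cerebellum had 1404 and 1241 CPM and hippocampus 3281 to 5480 CPM. Of 16 hippocampal pyramidal markers in the table only Zbtb20 and Nr3c2 were tested. Nr3c2, the mineralocorticoid receptor, had 0 and 30.4 CPM against 168.8, 102.3, 182.3 and 325.1 CPM, without overlap, and was called lower (-3.12, SE 0.955, adjusted p = 0.0219).

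**Figure D4:**
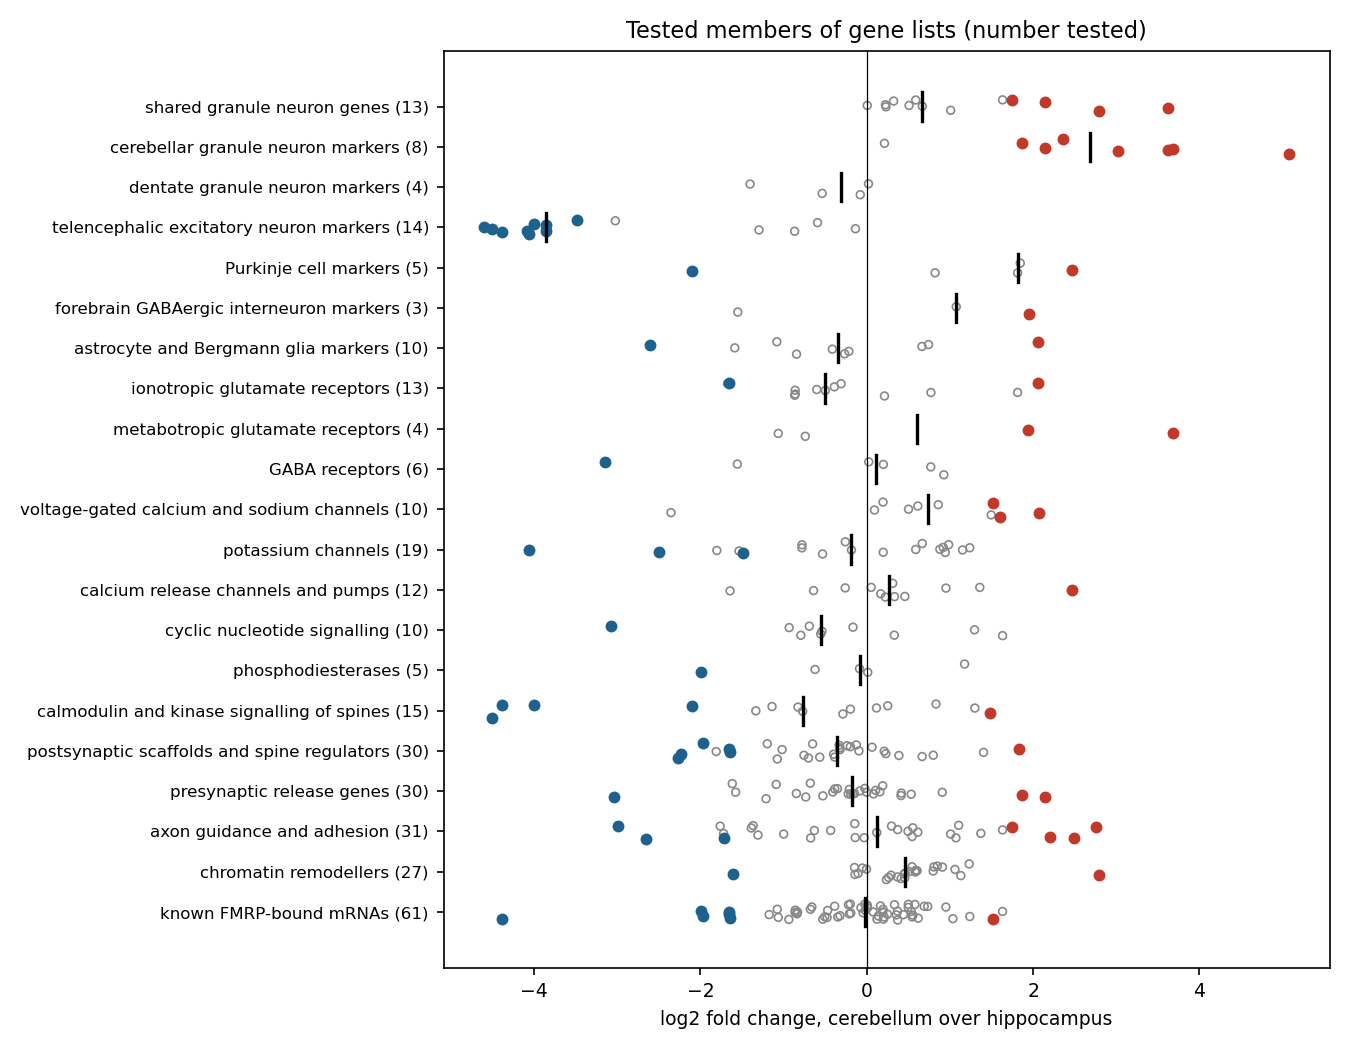
Log2 fold change of cerebellum over hippocampus (x axis) for tested members of each list with at least 3 of them (rows; number tested in brackets). Filled red points were called higher, filled blue points called lower, open points were not called, and black bars are list medians. Cerebellar granule and telencephalic lists stand at opposite ends, with medians of 2.69 and -3.86. The lists were chosen with earlier results known.

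Purkinje cell markers were mixed, with 5 of 21 tested, 1 called higher and 1 lower, and a median of 1.81. Called were 40%, against 6.4% of all tested genes. Itpr1, the inositol trisphosphate receptor abundant in Purkinje cells, had 2630 and 2786 CPM in cerebellum against 560.2, 230.1, 364.6 and 789.6 CPM in hippocampus, without overlap (2.47, SE 0.546, adjusted p = 0.000504). Pcp2, which is made only by Purkinje cells and some retinal cells, had 41.9 and 45.6 CPM in cerebellum and 0, 8.52, 0 and 0 CPM in hippocampus, too low to test. Summed Purkinje markers had 3950 and 4514 CPM against 1185 to 1811 CPM, of which Itpr1 made up most in cerebellum.

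Markers of other cells were mostly too low to test. Of 13 forebrain interneuron markers 3 were tested and 1 was called (33.3%, against 6.4% of all tested genes). The called gene was Reln, a secreted glycoprotein that granule cells of the cerebellum also make. Reln had 743.8 and 552.2 CPM against 130.5, 144.9, 227.9 and 278.7 CPM (1.95, SE 0.498). Of 17 astrocyte and Bergmann glia markers 10 were tested, with Gria4 higher (2.06) and Slc1a2 lower (20% called against 6.4% of all tested genes). Slc1a2, the astrocyte glutamate transporter, had 660 and 542.1 CPM against 2625, 3009, 1777 and 4784 CPM, without overlap (-2.61, SE 0.661, adjusted p = 0.00307, but 0.214 in the fit of 6 samples). Slc1a3, the transporter of Bergmann glia, was not called (-0.84). Of oligodendrocyte markers 2 of 13 were tested and 0 called (median 0.91). Microglia and endothelial markers had 0 tested members, with sums of 83.8 to 182.3 CPM and of 91.1 to 272.8 CPM over the 6 samples. Choroid plexus and ependymal markers had 1 tested and 0 called; their sums were 178.1 and 268.5 CPM in cerebellum and 230.2 to 696.7 CPM in hippocampus. Proliferation and Sonic hedgehog genes had 1 tested, Ptch1, the hedgehog receptor (1.23, adjusted p = 0.116).

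Ionotropic glutamate receptor genes had 13 of 18 tested and differed in opposite directions. Gria4, an AMPA receptor subunit, was higher, with 261.9 and 309 CPM in cerebellum against 30.7, 68.2, 182.3 and 185.8 CPM (2.06, SE 0.603, adjusted p = 0.0142, but 0.0841 without the block). Grin2b, the NMDA receptor subunit that granule cells lose on maturing, was lower, with 335.2 and 324.2 CPM against 1059, 758.6, 273.4 and 789.6 CPM (-1.66, SE 0.506, adjusted p = 0.0208, but 0.183 without the block). Hippocampus 4 lay below cerebellum for Grin2b. The other 11 were not called, and the list median was -0.50. Called were 15.4% of its tested members, against 6.4% of all tested genes. Of the metabotropic receptors Grm4 was higher, and Grm3 (-0.74) and Grm5 (-1.06) were not called. Among 6 tested GABA receptor genes 16.7% were called, against 6.4% of all tested genes. The called gene was Gabra5, the subunit of extrasynaptic receptors of hippocampal pyramidal cells, which was lower. It had 21.0 and 15.2 CPM against 191.9, 119.3, 45.6 and 92.9 CPM (-3.15, SE 0.886). In hippocampus 4 and 5 it had only 1 and 2 counts, and DESeq2 did not call it (adjusted p = 0.0644).

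Of the voltage-gated calcium and sodium channels, 10 genes were tested, 3 called higher and 0 lower (median 0.74). That is 30% called, against 6.4% of all tested genes. All 3 called genes encode pore subunits of calcium channels. Cacna1g, a T-type channel of Purkinje and deep nuclear cells, had 1330 and 1368 CPM against 475.8, 144.9, 136.7 and 278.7 CPM (2.07, SE 0.488). Cacna1e, an R-type channel, had 3195 and 2285 CPM against 1074, 485.8, 455.7 and 975.3 CPM (1.604, SE 0.529). Cacna1a, the P/Q-type channel of cerebellar synapses, had 1550 and 1662 CPM against 629.3, 298.3, 364.6 and 557.3 CPM (1.52, SE 0.504). Cerebellum stood above every hippocampus sample for each. In the fit of 6 samples Cacna1e (adjusted p = 0.308) and Cacna1a (0.176) lost their calls, and the list had 2 higher and 2 lower, one of them Cacna1h, a T-type channel gene too low for the fit of 9 samples. Potassium channel genes had 19 tested, 0 higher and 3 lower (15.8% called against 6.4% of all tested genes, median -0.18). Among the lower ones were Kcnh3 and Kcnq3, an M-current subunit (-1.48, adjusted p = 0.0495, but 0.148 without the block). Of 12 tested calcium release channels and pumps only Itpr1 was called, which is 8.33%, near the 6.4% of all tested genes.

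Pde2a, the dual cAMP and cGMP phosphodiesterase named in the title of the study, lies on chromosome 7 from 101421691 to 101512827 (plus strand). It had 83.8 and 91.2 CPM in cerebellum against 1059, 68.2, 455.7 and 418 CPM in hippocampus. Hippocampus 3 lay below both cerebellum samples, so the groups overlapped. The log2 fold change was -1.99 (SE 0.593, adjusted p = 0.0171, but 0.0907 in DESeq2 and 0.0735 in the fit of 6 samples). Between cerebellum 1 and hippocampus 1+2 the log2 ratio of CPM was -3.66 (95% exact counting interval -4.90 to -2.64), and between cerebellum 2 and hippocampus 3 it was 0.42 (-0.85 to 1.83) or, with TMM factors, -0.19. The call of Pde2a between cerebellum and hippocampus was lost without cerebellum 1 (-0.03), cerebellum 2 (-3.34), hippocampus 1+2 (-1.33), hippocampus 4 (-1.85), hippocampus 5 (-1.93), cortex 1 (-1.90) or cortex 2 (-1.96), and kept without hippocampus 3, where the difference was -3.41. Of 19 phosphodiesterase genes 5 were tested, and Pde3a (1.18), Pde4d (-0.62), Pde10a (-0.09) and Pde1a (0.01) were not called. Among 10 tested genes of cyclic nucleotide signalling, Prkar1b, a regulatory subunit of protein kinase A, was lower, with 0 and 25.3 CPM against 53.7, 110.8, 227.9 and 510.9 CPM (-3.08, SE 0.897). Adcy1 and Nos1, the neuronal nitric oxide synthase (1.30, adjusted p = 0.133), were not called. Called were 10% of the tested genes of cyclic nucleotide signalling and 20% of the phosphodiesterases, against 6.4% of all tested genes.

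Genes of calmodulin and kinase signalling in spines had 15 tested, 1 higher and 4 lower (median -0.77). That is 33.3% called, against 6.4% of all tested genes. Camk4, the nuclear calmodulin kinase of granule cells, was higher, with 911.4 and 405.3 CPM against 214.9, 179.0, 364.6 and 185.8 CPM (1.48, SE 0.485, adjusted p = 0.0371, but 0.121 without the block). Camk2a, Nrgn and Pak6 were among the lower ones. Camk2b, the beta subunit that granule cells also make, was not called (-1.33, adjusted p = 0.152). Postsynaptic scaffolds and spine regulators had 30 tested, 1 higher and 5 lower (20% called against 6.4% of all tested genes, median -0.36). These counts were 1 and 3 without the block and 1 and 1 in the fit of 6 samples. Agap2, a GTPase-activating protein that enhances PI3 kinase, had 450.5 and 430.6 CPM against 1926, 1509, 865.8 and 1765 CPM, without overlap (-2.27, SE 0.572, adjusted p = 0.00292, but 0.12 in the fit of 6 samples). Sipa1l1, Lrrc7 and Kalrn, regulators of small GTPases or scaffolds of spines, had -2.23, -1.97 and -1.65. Kalrn lost its call without the block (adjusted p = 0.0556) and in the fit of 6 samples (0.176), and Lrrc7 in the latter (0.0586). Sipa1l2, a relative of Sipa1l1, went the other way at 1.83, but DESeq2 did not call it (adjusted p = 0.219). The core scaffolds Dlg4 (-1.08), Shank1 (-0.32) and Shank3 (-0.20) were not called.

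Presynaptic release genes had 30 tested and a median of -0.18. Cadps2 and Unc13c were higher, and Rimbp2, which ties calcium channels to release sites, was lower (-3.04). Called were 10% of this list, against 6.4% of all tested genes. Axon guidance and adhesion genes had 31 tested, 4 higher (Unc5c, Unc5b, Draxin and Sema6a) and 3 lower (median 0.12). That is 22.6% called, against 6.4% of all tested genes. The lower ones were the ephrin receptors Epha5, with 62.9 and 50.7 CPM against 260.9, 451.7, 227.9 and 185.8 CPM (-2.997, SE 0.608), and Epha4 (-2.65), and the teneurin Tenm3 (-1.72). Cerebellum lay below every hippocampus sample in all 3. Of 27 tested chromatin remodellers Chd7 was higher and Chd5, a neuronal relative, was lower (-1.61, adjusted p = 0.0371, but 0.0538 without the block), and the median was 0.46. These 2 are 7.41% of the list, near the 6.4% of all tested genes. Immediate early genes had 0 of 14 tested, with sums of 366.7 and 425.6 CPM in cerebellum and 557.3 to 784.2 CPM in hippocampus.

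Of 61 tested mRNAs known from earlier work as FMRP-bound, 1 was higher, Cacna1a, and 6 were lower, among them Camk2a, Pde2a, Lrrc7, Grin2b and Kalrn. That is 11.5% of the list, against 6.4% of all tested genes, but the fit of 6 samples called 0 higher and 1 lower of 61, and the fit without the block 2 higher and 3 lower. The median was -0.02, with 30 above 0 and 31 below. Abundant members such as Map1b (-0.07), Kif1a (0.08) and Huwe1 (0.50) were not called. Fmr1 itself was not called (-0.94, adjusted p = 0.756).

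Called genes kept their direction in both title codes. With TMM scaling and 10 CPM added, the ratios of cerebellum 1 to hippocampus 1+2 and of cerebellum 2 to hippocampus 3 were above 0 for 53 of 53 higher genes and below 0 for 57 of 57 lower genes; over all tested genes 509 were higher and 538 lower in both. The fit itself used these 4 samples, and hippocampus 4 and 5, of a code without cerebellum, weigh -0.091 each on a least-squares scale, against -0.364 and -0.455 for hippocampus 1+2 and 3. Through the codes cortex 1 weighs -0.182, more than hippocampus 4 or 5, and cortex 2 and 3 weigh 0.091 each. Of the called genes 42 higher and 34 lower were also called without the block, and 30 and 36 by DESeq2. Called in all of these and in both fits of 6 samples were 25 higher genes, among them Grm4, Itpr1, Unc5c, Il16 and Chd7, and 24 lower genes, among them Camk2a, Ddn, Pak6, Nrgn and Epha5.

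**Figure D5:**
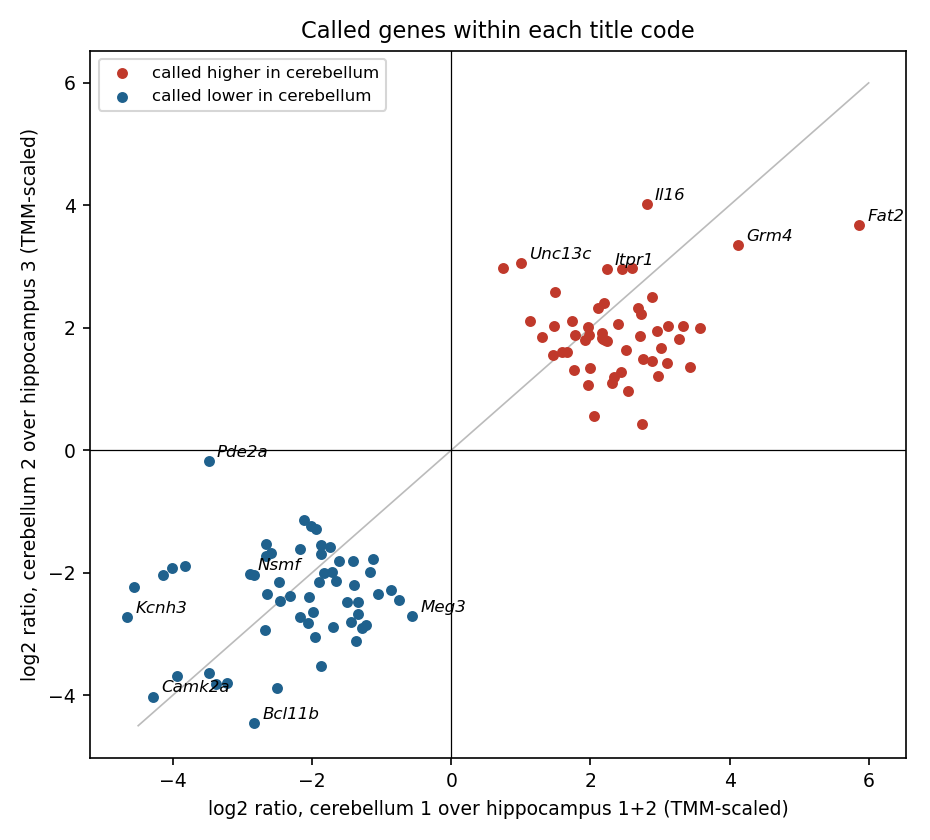
Log2 ratios of TMM-scaled CPM, with 10 CPM added, of cerebellum 1 over hippocampus 1+2 (x axis) and cerebellum 2 over hippocampus 3 (y axis) for the 110 called genes. The 53 higher genes (red) lie in the upper right and the 57 lower genes (blue) in the lower left; Pde2a lies near 0 on the y axis. The grey line marks equal ratios.

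Levels of different genes were compared per kilobase of exonic length. Among the named genes cerebellum led with Adcy1 at 514.2 CPM per kilobase, followed by Fat2 (236.5), Grm4 (209.6) and Camk4 (202.0). Hippocampus led with Agap2 (255.2), Slc1a2 (232.2), Camk2a (196.1) and Adcy1 (125.9). Zbtb20 had 30.1 in cerebellum and 32.0 in hippocampus, and Prox1 8.64 and 23.3. The deposited rows do not say where in a gene a fragment lay. The longest coding transcripts of higher genes had a median length of 6817 bases and of lower genes 5633, against 6276 for all tested genes. Their median GC contents were 50.8, 52.9 and 49.7%. The FMRP-associated 4-letter words TGGA and AGGA occurred at medians of 13.3, 12.5 and 13.3 per 1000 bases, and ACTG and ACTT at 8.47, 8.02 and 8.87. The middle ranges of the 3 groups overlapped in each of these features.

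The use of strand in counting is not given in the sources used here. Of the 65 named genes, 19 are overlapped on the other strand by another row of the table, among them Il16, Chn2, Unc5c, Zic1, Camk4, Nfia, Nfib, Nfix, Zbtb20, Grin2b, Tenm3, Kcnh3, Nr3c2 and Gabra5, and fragments of such pairs cannot be told apart.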

How the data were processed

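Fragments bound by FMRP were measured in 11 libraries of mouse brain. The authors deposited whole-number fragment counts per gene symbol, which were used as deposited; per the submitters' processing notes, mm10, Bowtie 0.12.7 and Picard were used. The sources used here do not name the counting program, the annotation, the use of strand or the handling of duplicates. Samples were grouped by the tissue label; a library of 30344 counts whose title and tissue label disagree entered alternatives only. Of all table columns, 0 were left unused. CPM are counts per 1000000 counts of a sample.

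Cerebellum was compared with hippocampus by the quasi-likelihood test of edgeR 4.0.16 (R 4.3.3) with TMM factors, filterByExpr by region and the number in each title as a block, over 9 samples (2 cerebellum, 4 hippocampus, 3 cortex) with 4 residual degrees of freedom. The SE is the absolute log2 fold change over the square root of F, so SE and 95% intervals are approximate. What the title numbers stand for is not stated; samples of the same number correlated in their deviations with a median r of 0.14 (8 pairs, -0.13 to 0.46) and others with -0.05 (18 pairs). DESeq2 1.42.0 was an alternative. The script was tested on simulated data.

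Named genes are the 12 called genes with the largest change in each direction, called members of 29 gene lists, tested genes shared by granule neurons, Pde2a, Zbtb20 and Prox1; any other gene was chosen after its values were seen. Comparison, members and lists were chosen with earlier results of these data known. Coordinates and transcripts are from GENCODE on GRCm38 and promoters from RefSeq. Some genes of these lists are not reported here.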

Additional observations from a re-analysis of the deposited data

Results flagged for a closer look

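For Tenm3, hippocampus 3 had 392.1 CPM, away from the other 3 hippocampus samples at 650.2 to 683.6 CPM; among groups of this size chance marks about 1 in 20, and 65 genes were examined. For the genes shared by granule neurons below, the log2 ratio with TMM factors had opposite signs in the 2 title codes, and the difference between the codes was not tested. Kcnd2, a potassium channel gene, had 0.81 between cerebellum 1 and hippocampus 1+2 and -0.014 between cerebellum 2 and hippocampus 3. Nfix, an NFI transcription factor, had 0.80 and -0.086. Zbtb18, a transcriptional repressor, had 1.43 and -0.65. Zbtb20 had -0.19 and 0.22.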

How the results depend on the processing

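In 27 alternatives, 3 of them added after seeing the data, every gene called in the first fit and tested again kept its direction. The count of called genes, 110, became 187 with 10 separate libraries, 45 with library totals alone, 70 with DESeq2, 67 with at least 10 counts in 4 samples, 0 without a filter (30818 rows tested; 465 at an unadjusted p under 0.05 in edgeR), 70 with library totals and no block (added), and 5 to 191 with 1 sample left out (42 without hippocampus 1+2); without cerebellum 1 or 2 a lone cerebellum sample is assumed to vary like the other regions. Without the title code as a block it was 83.

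The difference in Pde2a between cerebellum and hippocampus lost its call in the fit of 6 samples with the replicate block (-1.91), with library totals alone (-1.68), DESeq2 (-1.94), no filter (-1.45), titles that begin with s (-1.82), no predicted names (-1.90) and library totals with no block (-2.51); with 1 sample left out it ran from -3.41 (without hippocampus 3, with the call kept) to -0.03 (-1.33 without hippocampus 1+2). Zbtb20 turned negative without the block (-0.07; 6 samples -0.03; library totals -0.07), with 10 libraries (-0.04), hippocampus 2 in place of the sum (-0.06), the library of conflicting labels in either region (-0.07), and without the block and hippocampus 3 (-0.23) or 3 and 4 (-0.42); with 1 sample left out it ran from -0.17 to 0.37 (-0.02 without hippocampus 1+2). Zbtb18 turned negative without the block (-0.19; 6 samples -0.10; library totals -0.11) and ran from -0.50 to 1.19 without 1 sample (-0.44 without hippocampus 1+2), and Nfix (-0.07) and Tiam1 (-0.05) without hippocampus 1+2. The causes were not tested. Camk2a kept its call in 26 of 27 alternatives, Unc5c and Ddn in 25 of 27 and Grm4 in 25 of 26. Among the 6 samples of cerebellum and hippocampus, depth limits low genes most in hippocampus 4 and 5, where 1 count is 45.6 and 46.4 CPM; in cortex 3, which also entered the fit, it is 84.1 CPM.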

Other observations

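Genes outside the fixed lists also differed. Among called genes higher in cerebellum were Fat1 (log2 fold change 2.02) and Celsr3 (1.88), cadherins of the same broad family as Fat2, Plxnb2 (2.07), a semaphorin receptor of granule cell precursors, Lrp8 (1.80), a receptor of reelin, and Cntn2 (1.70), an adhesion protein of growing parallel fibres. Trpm3 (1.76), a cation channel gene whose intron hosts a microRNA, and Foxo3 (1.95), a transcription factor, were higher as well. Lower genes included Camkv (-2.61), Camk2n1 (-2.34) and Rasgrp1 (-2.45) of calcium and Ras signalling, the protocadherins Pcdh19 (-2.52), Pcdh17 (-2.15) and Pcdh10 (-1.83), Nlgn1 (-2.25), the neuroligin of excitatory synapses, and Neto1 (-1.71), an auxiliary subunit of kainate receptors. Chn1, the close relative of Chn2, had -2.45. The long non-coding RNA Meg3 had -2.13. Without the block 9 of these genes lost their call, with edgeR adjusted p-values from 0.0509 for Foxo3 to 0.122 for Cntn2; the others were Meg3, Nlgn1, Chn1, Neto1, Pcdh17, Camk2n1 and Pcdh10. In CPM the groups overlapped for Chn1, Meg3, Pcdh19, Pcdh10, Nlgn1 and Camk2n1. DESeq2 did not call Cntn2 (adjusted p = 0.202), Chn1 (0.187), Neto1 (0.134), Camk2n1 (0.104), Nlgn1 (0.0913) or Camkv (0.0799). The genes outside the fixed lists were chosen after their values were seen.

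In the fit of cerebellum and hippocampus alone, 28 genes past the threshold had been too low for the fit of 9 samples. A gene could pass its looser filter through the group in which it is high alone, so these values are a description and their number supports nothing. Besides Gabra6, Cbln3 and Cbln1, those higher in cerebellum included Kcnk3, a leak potassium channel of granule cells (157.1 CPM in cerebellum 2 against at most 45.6 CPM in hippocampus; log2 fold change 2.52), Lin7a (2.99) and Syt9 (2.46). Those lower included Fibcd1, a marker of CA1 pyramidal cells, with 2 counts in cerebellum against 40 in hippocampus (20.1-fold lower, 95% exact counting interval 5.22 to 172), although hippocampus 4 and 5 had 0 counts. Nr4a3, an activity-induced nuclear receptor (-3.03), Lrrtm1 (-3.43), Rtn4rl2 (-3.47), Cacna1h (-2.56) and Synpo, a spine apparatus protein (-2.16), were also lower.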
